A study of Homo sapiens with 2 samples.

Results

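Divergent pairs of transcription start calls inside genes numbered 708 in HUDEP-2 cells, of 5798 divergent pairs in all (12.2%, 95% Wilson interval 11.4 to 13.1). HUDEP-2 is an immortalised line of human erythroid progenitors derived from umbilical cord blood. PRO-cap, a run-on assay that maps the capped 5' ends of nascent RNA, was applied to wild-type cells of this line in 2 biological replicates, with no treatment and no second group. The deposited data were 1 list of called positions per strand with 26395 calls, of which 26332 on chromosomes 1 to 22 and X entered here. A pair was a reverse call and the nearest forward call 0 to 300 bp above it. Pairs were kept when both calls lay more than 1000 bp from every outer end of any RefSeq gene and at least 1 call lay inside a gene. The other divergent pairs lay near a gene end (4876) or outside genes (214).

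Read counts and replicate names were absent from the lists, which leaves sequencing depth unknown and gives no measure of replicate spread. Unless named otherwise, intervals are Wilson's at 95% and hold counting error alone, and pairs within 1 gene share their host. Of 9 erythroid marker genes 8 had a called start at a gene end, among them GATA1, KLF1, HBB and ALAS2, and TAL1 had none. None of 5 megakaryocyte, 5 granulocyte and monocyte, 5 lymphoid and 4 mast cell and basophil markers had one, and of 4 stem cell markers HLF did. Of 18609 protein-coding genes over 2000 bp, 43.0% had a called start.

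RNA polymerase II initiates in both directions at most active promoters and at active enhancers, from a pair of core promoters that lie back to back. A divergent pair inside a gene can therefore mark an internal promoter that gives a shorter transcript, or an enhancer within an intron. A known internal promoter in blood cells is the proximal promoter of RUNX1.

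Sequence windows are shown for 6 of the 8 listed erythroid and signalling genes with a call in the window of an internal annotated start. Each is 300 bases of RefSeq sequence (GRCh38.p14), from 250 bases before to 50 bases from the start onwards, written 5' to 3' on the strand of the gene. Single capitals are the called bases, with the opposite-strand call first (HEMGN has 1, its annotated-strand call), and runs of capitals are matches to AGATAA or TGATAA on either strand. IKZF1, an Ikaros family transcription factor, is shown at chr7:50304466-50304765 (plus strand), and RUNX1, a haematopoietic transcription factor, at chr21:34888650-34888949 (minus strand). SLC48A1, a haem transporter, is at chr12:47772988-47773287 (plus) and TMCC2, a transmembrane protein gene, at chr1:205229465-205229764 (plus). CCND3, which encodes cyclin D3, is at chr6:41941759-41942058 (minus), and HEMGN, which encodes the erythroid nuclear protein hemogen, at chr9:97938123-97938422 (minus).
IKZF1: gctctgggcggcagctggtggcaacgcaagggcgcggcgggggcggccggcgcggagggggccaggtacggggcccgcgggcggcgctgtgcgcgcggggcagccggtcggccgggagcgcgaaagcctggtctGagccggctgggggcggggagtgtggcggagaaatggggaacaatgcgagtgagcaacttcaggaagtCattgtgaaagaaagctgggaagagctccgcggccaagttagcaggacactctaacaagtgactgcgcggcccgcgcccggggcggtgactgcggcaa
RUNX1: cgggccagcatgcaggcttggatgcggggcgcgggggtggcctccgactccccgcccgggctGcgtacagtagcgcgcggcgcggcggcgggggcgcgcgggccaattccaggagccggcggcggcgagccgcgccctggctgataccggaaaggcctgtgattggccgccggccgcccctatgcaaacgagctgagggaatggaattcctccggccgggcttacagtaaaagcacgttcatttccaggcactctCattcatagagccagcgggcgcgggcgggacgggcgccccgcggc
SLC48A1: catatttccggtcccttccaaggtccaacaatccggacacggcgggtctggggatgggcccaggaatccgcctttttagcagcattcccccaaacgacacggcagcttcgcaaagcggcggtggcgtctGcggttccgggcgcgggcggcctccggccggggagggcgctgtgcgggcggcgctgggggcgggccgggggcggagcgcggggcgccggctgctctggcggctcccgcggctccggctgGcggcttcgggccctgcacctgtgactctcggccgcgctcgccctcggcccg
TMCC2: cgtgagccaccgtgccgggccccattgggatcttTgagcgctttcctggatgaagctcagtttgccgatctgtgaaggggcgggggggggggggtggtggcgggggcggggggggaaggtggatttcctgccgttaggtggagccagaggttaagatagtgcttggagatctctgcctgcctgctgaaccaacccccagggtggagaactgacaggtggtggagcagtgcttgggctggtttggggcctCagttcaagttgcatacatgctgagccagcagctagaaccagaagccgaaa
CCND3: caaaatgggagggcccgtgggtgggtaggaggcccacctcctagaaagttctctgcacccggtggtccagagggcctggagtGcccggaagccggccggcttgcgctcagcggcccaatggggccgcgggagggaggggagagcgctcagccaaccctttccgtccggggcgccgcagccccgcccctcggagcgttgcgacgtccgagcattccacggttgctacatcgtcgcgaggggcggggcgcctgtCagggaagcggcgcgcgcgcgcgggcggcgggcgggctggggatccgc
HEMGN: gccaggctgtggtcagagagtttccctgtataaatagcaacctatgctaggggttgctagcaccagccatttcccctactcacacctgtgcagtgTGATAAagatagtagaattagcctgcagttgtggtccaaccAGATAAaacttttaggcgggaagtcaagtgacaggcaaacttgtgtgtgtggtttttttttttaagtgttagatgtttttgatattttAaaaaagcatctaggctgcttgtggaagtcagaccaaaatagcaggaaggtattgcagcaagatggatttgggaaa

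These windows differed in composition. The windows of IKZF1, RUNX1, SLC48A1 and CCND3 held 71% to 74.7% G and C with 35, 40, 41 and 37 CG dinucleotides. That of TMCC2 held 61% with 10, and that of HEMGN 42.3% with 1. The windows of TPM3 and SOS1, which are not shown, held 67% with 22 and 65.7% with 19. The HEMGN window was the only one of the 6 with an AGATAA or TGATAA match, 114 and 155 bases before the annotated start. It also held TATAAA 222 bases before the start, and its opposite-strand call lay at -323 from the start, outside the window. CCNCNCCC, searched on both strands, matched in every window shown except that of HEMGN. These matches describe letters, not binding.

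Part of the pairs lay at annotated internal starts. A call of the pair lay within 500 bp of an annotated start on its own strand in 252 of 708 pairs (35.6%, 32.2 to 39.2), and in each case the start belonged to a gene that hosts the pair. Only 609 pairs had a host in the start table, and among these the share was 41.4% (37.5 to 45.3). The remaining pairs comprised 357 with a host in the table but no such start and 99 whose host was not in the table, which lists no gene of chromosome 8. In 4 pairs both calls lay at an annotated start. Of 5260 annotated starts more than 1000 bp from every gene end, 788 (15.0%) had a call of the same strand within 500 bp.

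The calls fell close to these starts. The median offset was 5 bp downstream of the annotated base (quartiles -1 and 31). Of the 252 pairs, 117 (46.4%, 40.4 to 52.6) had the call within 10 bp and 190 (75.4%, 69.7 to 80.3) within 50 bp. RUNX1 had its call 5 bp inside the start at 34888699, TMCC2 1 bp before 205229715 and CCND3 2 bp inside 41941808. NSD1, a histone methyltransferase gene, had its forward call exactly on the annotated start at 177133773 of chromosome 5.

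Called bases stood 1 base before the usual initiator in many cases. Human starts favour a pyrimidine followed by a purine, often CA, with the purine as the first transcribed base. Among 197 calls of in-gene pairs within a start window, CA ended at the called base in 4 (2.03%) and began at it in 65 (interval 26.8% to 39.8%). At all 34961 annotated starts CA ended at the start in 29.7% and began at it in 2.84%. The opposite-strand calls of the pairs, 181 of which lay in a window, showed the same arrangement, with CA ending at 2.21% and beginning at 43.1% (36.1 to 50.4). A pyrimidine followed by a purine ended or began at the called base in 76.6% of annotated-strand calls (70.3 to 82.0) and 78.5% of opposite calls (71.9 to 83.8). Over all 7696 calls in windows CA began at 37.3%. The offset from the annotated start was most often -1, in 41 of the 197 pairs and in 19.9% of 7733 calls. Positions are printed as deposited, and a shift of 1 base along the strand is not tested against reads.

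Start windows of in-gene pairs at annotated starts were rich in G and C. Sequence was not read at the 357 pairs with no annotated start or the 99 with no host in the start table. The median G and C content was 67.0% (quartiles 60.7 and 72.7) over 197 windows of in-gene pairs, 66.3% over 337 windows with an unpaired call inside a gene, 66.7% over 3850 windows of pairs near a gene end and 52% over 4717 internal starts without a call. At least 10 CG dinucleotides were held by 93.9% (89.7 to 96.5), 86.4%, 98.8% and 34.9% of these windows. Paired windows exceeded unpaired windows inside genes in this share (Fisher's exact test, two-sided, adjusted p = 0.0493 over 8 features, namely 6 motifs and limits on G and C content and CG count; odds ratio 2.44). The adjusted p lies just under the threshold of 0.05.

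Motif shares of paired and unpaired windows did not pass the test. Paired windows here are again those of in-gene pairs at annotated starts alone. AGATAA or TGATAA, the sites of GATA factors, occurred in 15 of 197 paired windows (7.61%, 4.67 to 12.2), against 10.1% of unpaired windows and 16.3% of all start windows. CCNCNCCC, of the kind bound by KLF factors, occurred in 73.1%, 78.0% and 56.3%. CANNTG, the E-box, occurred in 58.9%, 61.7% and 68.7%, and GCCATNTT, of the YY1 type, in 10.2%, 8.01% and 6.58%. TATAAA was found in 2.03%, 2.67% and 11.5%, and TGAGTCA or TGACTCA in 4.06%, 4.75% and 4.92%. All motifs were searched on both strands, and CCNCNCCC can overlap itself. None of the 6 motifs passed Fisher's exact test between paired and unpaired windows inside genes (smallest unadjusted p = 0.207, adjusted p 0.685 to 0.830).

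**Figure D1:**
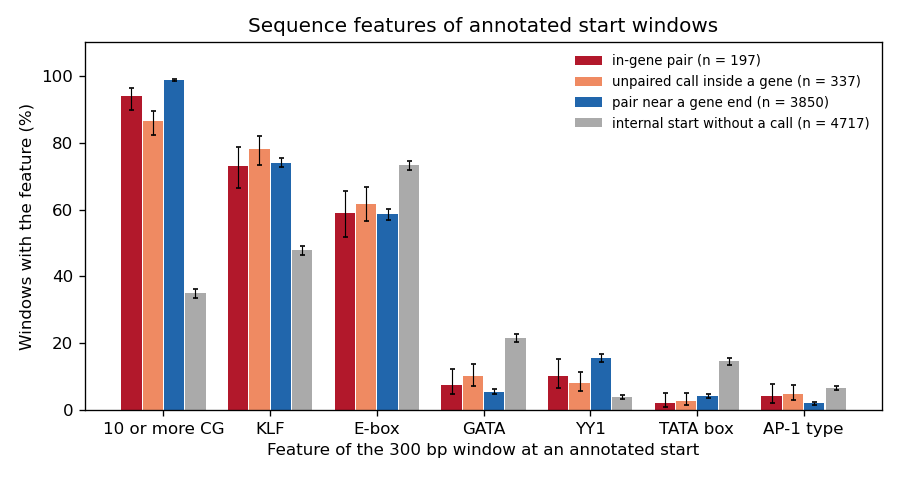
Share of 300 bp annotated start windows (%) with each sequence feature. Groups are windows of in-gene pairs (at annotated starts only) and windows with an unpaired call inside a gene. The others are windows of pairs near a gene end and internal starts without a call. Error bars are 95% Wilson intervals. The 3 groups with calls carry 10 or more CG dinucleotides in 86.4% to 98.8% of windows, against 34.9% of internal starts without a call.

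The median spacing of the calls of a pair was 148.5 bp (interval of the median 141 to 156, quartiles 100 and 207.25), with 46 pairs under 50 bp and 79 over 250 bp. It was 152.5 bp at annotated starts, 144 bp without one, 148 bp for pairs near a gene end and 131.5 bp (123 to 147) for intergenic pairs. Spacing of at most 150 bp was found in 361 of 708 in-gene pairs (51.0%, 47.3 to 54.7) and 125 of 214 intergenic pairs (58.4%, 51.7 to 64.8), a difference that did not pass Fisher's exact test (two-sided, adjusted p = 0.183 over 3 comparisons). The narrowest pairs lay in PLEKHM2, with both calls at position 15684321 of chromosome 1, and in LINC02767 and SEC14L1, 1 bp apart each. The widest, at 300 bp, lay in RACGAP1, IPO5 and RORA.

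**Figure D2:**
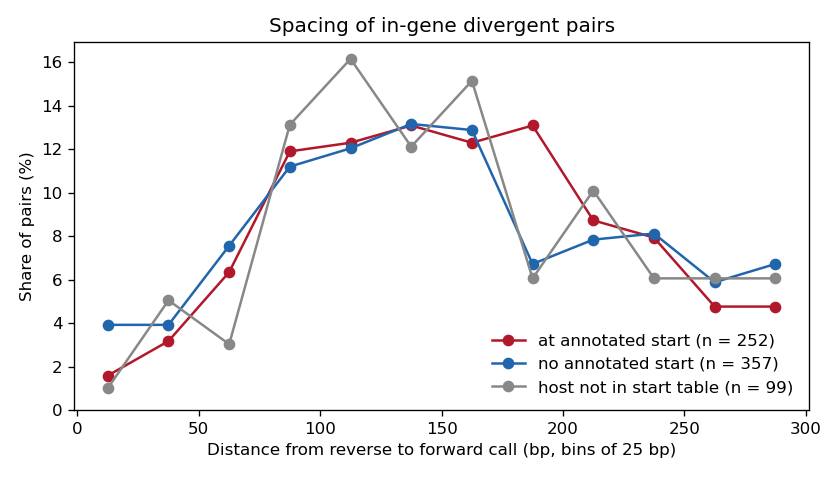
Distance between the reverse and the forward call (bp, bins of 25 bp) as a share of the in-gene pairs of each class (%), for pairs at an annotated start, with no annotated start and with a host not in the start table. The medians are 152.5, 144 and 149 bp.

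Hosts were mostly protein-coding. The 708 pairs lay in 667 genes, of which 577 were protein-coding, 86 long noncoding and 4 transcribed pseudogenes. A protein-coding host was present for 650 pairs (91.8%, 89.6 to 93.6), and 52 pairs lay in more than 1 gene. Among protein-coding hosts 501 held 1 pair, 65 held 2 and 11 held 3. In bases that meet the rule, in-gene pairs occurred at 0.458 per Mb (exact Poisson interval 0.425 to 0.493) and intergenic pairs at 0.165 per Mb (0.143 to 0.188). The in-gene rate includes the 252 pairs at annotated internal starts. Gaps and unmappable bases were not removed from either class.

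The share of genes with a pair rose with length up to 300 kb, while pairs per Mb of gene were fewer in longer genes. Of 18609 protein-coding genes over 2000 bp, 577 held a pair (3.10%). The share was 0.988% at 2 to 10 kb, 2.57% at 10 to 30 kb, 3.75% at 30 to 100 kb, 6.32% at 100 to 300 kb and 3.37% above 300 kb. Pairs per Mb were 2.93 in the shortest and 0.0804 in the longest class. A called start, an inward call within 500 bp of either gene end, was present in 285 of the 577 hosts (49.4%, 45.3 to 53.5), where the background was 43.0%. By this measure an antisense call at the 3' end also counts. By length the hosts stood above other genes in 2 classes without overlap of the intervals: 60.5% against 35.6% at 2 to 10 kb, and 49.7% (42.1 to 57.3) against 39.9% (38.0 to 41.9) at 100 to 300 kb. At 30 to 100 kb it was 47.3% against 49.9%.

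**Figure D3:**
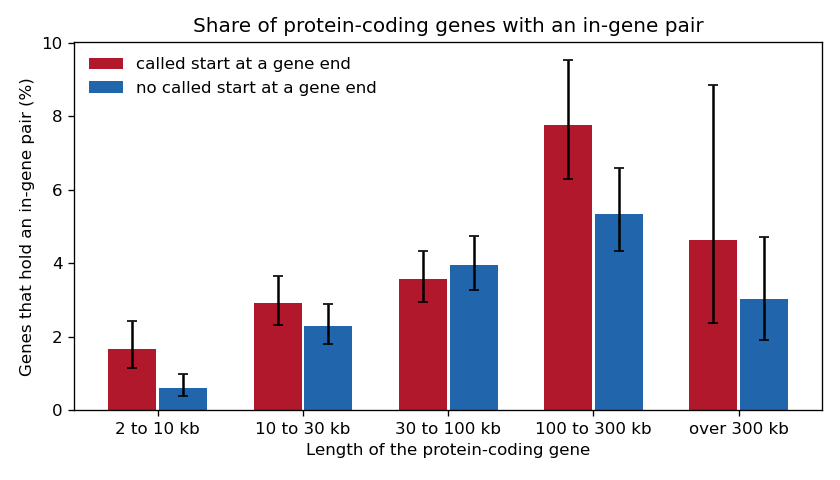
Share of protein-coding genes that hold an in-gene pair (%) by gene length, for genes with and without a called start at a gene end; error bars are 95% Wilson intervals. Genes of 100 to 300 kb show the highest shares, 7.75% with and 5.35% without a called start.

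Pairs lay towards the 5' end of their host. For 574 combinations of a pair and a protein-coding host of known strand, the median position was 0.329 of the gene length and 14.6 kb from the 5' end, and 372 (64.8%, 60.8 to 68.6) lay nearer to the 5' than to the 3' end. At annotated starts 72.0% (66.2 to 77.1) did, and 4 of 257 lay in the last 10% of the gene. Without an annotated start 59.0% (53.5 to 64.3) did, and 34 of 317 (10.7%) lay in the last 10%. The rule leaves out the 1000 bp next to each end, which takes more from the outer parts of short genes.

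**Figure D4:**
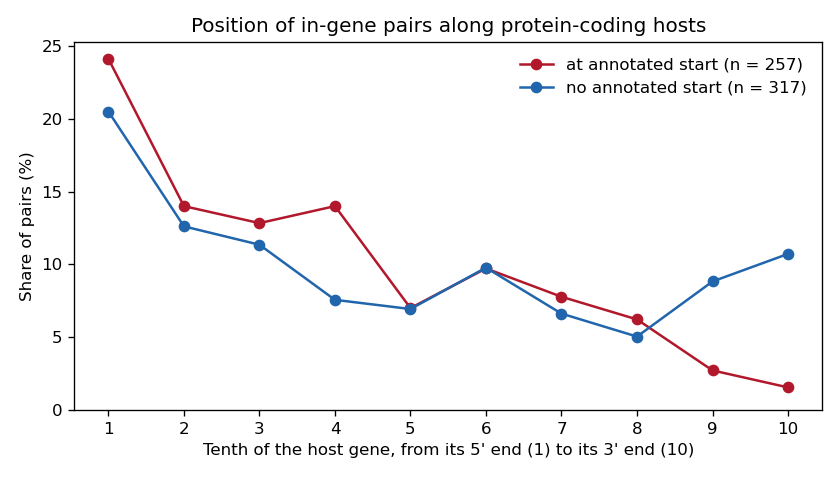
Share of in-gene pairs (%) in each successive 10% of the length of the protein-coding host, counted from the 5' end, for pairs at an annotated start and with none. Both classes peak at the 5' end, at 24.1% and 20.5%, and reach 1.56% and 10.7% at the 3' end.

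Many hosts of a pair at an internal annotated start had no call at their outer 5' end. This end was called in 81 of 235 such hosts (34.5%, 28.7 to 40.8) and in 147 of 252 hosts whose pairs had no annotated start (58.3%, 52.2 to 64.3; Fisher's exact test, two-sided, adjusted p = 6.59e-07 over 5 comparisons). Among hosts with an annotated start inside the gene, the shares were 34.6% and 37.9% (87 hosts; exact test, p = 0.601), and the difference did not pass. Genes with such a start and no pair had 25.5% (23.8 to 27.2). All genes without a pair, with or without such a start, had 44.4% (43.5 to 45.2). Hosts with an internal pair and no call at the outer 5' end included IKZF1, HEMGN, SLC48A1, CCND3, NSD1 and SLC11A2, an iron transporter with alternative first exons. RUNX1, ERMAP, TMCC2, ALDOA and TET3 had calls at both places.

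Between the classes 2 further measures, of the surroundings, passed Fisher's exact test, while spacing of at most 150 bp did not (49.6% against 52.1%, adjusted p = 0.565). The tests treat pairs as independent, although 131 of the 708 lay up to 10 kb from another in-gene pair and such neighbours count each other. These classes were compared after the data were seen. Another call lay within 1 kb of 145 of 252 pairs at an annotated start (57.5%, 51.4 to 63.5) and of 168 of 357 without one (47.1%, 41.9 to 52.2; Fisher's exact test, adjusted p = 0.0224). Another divergent pair lay within 10 kb of 29.0% and 38.1% (exact test, adjusted p = 0.0245). In this measure, here and against intergenic pairs below, the neighbour can be any divergent pair, including the 4876 near a gene end. The last of the 5 comparisons, the share of distal calls that belong to a pair, counted the opposite-strand calls of pairs at annotated starts among the others, and nothing is read from it. Compared with intergenic pairs, in-gene pairs did not pass the test for another call within 1 kb (50.7% against 44.9%, exact test, adjusted p = 0.208) or another pair within 10 kb (33.8% against 36.9%, adjusted p = 0.412).

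Erythroid transcription factor genes held pairs in 9 of 27 cases (33.3%, 18.6 to 52.2), where all protein-coding genes over 2000 bp gave 3.10% and those of 30 to 100 kb 3.75%. The median length of the listed genes was 43.3 kb. The hosts IKZF1, NFIX and RUNX1 fell in the class of 100 to 300 kb, which gave 6.32%. NFIA fell in that above 300 kb, which gave 3.37%. This list, like the others, was drawn up with earlier results of these data known, and no test was run on it. IKZF1 had a pair at 50304600 and 50304668 of chromosome 7, 1.18 kb from its outer 5' end, and RUNX1 at 34888694 and 34888887 of chromosome 21, 161 kb from its 5' end, both at the annotated starts shown above. The other pairs had no annotated start within 500 bp, except that NFE2 was not in the start table and could not be assessed. GFI1B, a repressor of erythroid and megakaryocyte genes, had its pair at 132984270 and 132984488 of chromosome 9, 38.8 kb into the gene and 5.79 kb downstream of its nearest annotated start. MYB, which keeps progenitors dividing, had one at 135192428 and 135192565 of chromosome 6, 11.2 kb into the gene.

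LDB1, the bridging cofactor of the GATA1 and TAL1 complex, had a pair at 102117918 and 102117993 of chromosome 10, 3.49 kb into the gene. BACH1, a haem-responsive repressor, had one at 29356935 and 29357161 of chromosome 21, 58.1 kb into a gene of 63.0 kb. NFIA and NFIX, nuclear factor I genes, had pairs 39.4 kb, and 74.1 and 84.1 kb, into genes of 386 and 103 kb. The NFIX pairs lay at 13069560 and 13069681 and at 13079571 and 13079678 of chromosome 19. NFE2, a regulator of globin genes, had a pair at 54295759 and 54295900 of chromosome 12, and its strand was not in the start table. MYB, NFIA and NFIX were also the 3 hosts among 29 regulators of fetal globin (10.3%, 3.58 to 26.4). Genes in the class of the list's median length, 30 to 100 kb, gave 3.75%, which lay within that interval.

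Of 29 genes of haem synthesis and iron handling 5 held a pair (17.2%, 7.60 to 34.5), where protein-coding genes of 10 to 30 kb, the class of the list's median length, gave 2.57%. ALAD, an enzyme of haem synthesis, had one at 113397362 and 113397509 of chromosome 9, 3.85 kb into the gene. SLC25A38, the mitochondrial glycine carrier, had one at 39387749 and 39387832 of chromosome 3, 4.42 kb into the gene. SLC11A2 had its pair at 51026279 and 51026511 of chromosome 12, 105 bp downstream of an annotated start, and that of SLC48A1 lay 2 bp before one.

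Of 32 membrane and blood group genes 6 held a pair (18.8%, 8.89 to 35.3), where those of 30 to 100 kb, again the class of the median length, gave 3.75%. ANK1, which encodes ankyrin, held 2 neighbouring pairs, at 41828178 and 41828350 and at 41828487 and 41828655 of chromosome 8. SPTB, which encodes beta spectrin, held pairs 34.7 and 37.8 kb into the gene. ADD2, the beta adducin gene, had a pair only 12 bp wide at 70717747 and 70717759 of chromosome 2. TPM3, a tropomyosin gene, had 2 pairs, of which that at 154183189 and 154183292 of chromosome 1 lay at an annotated start. The pair of ERMAP, which carries the Scianna blood group, lay at 42825462 and 42825612 of chromosome 1, 51 bp downstream of an annotated start. SLC4A1, the anion exchanger, had a pair 282 bp wide, with the reverse call 1.55 kb below the upper outer end. Of 19 other erythroid genes HEMGN, TMCC2 and RFESD held 1 pair each (15.8%, 5.52 to 37.6), with 2.57% in the class of 10 to 30 kb.

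Of 24 genes of erythropoietin and KIT signalling 2 held pairs (8.33%, 2.32 to 25.8), where the class of their median length, 30 to 100 kb, gave 3.75% and lay within the interval. CCND3 had one at 41941806 and 41941976, at the start shown above and 108 kb into the gene, and another at 42028660 and 42028818 with no annotated start. SOS1, a Ras exchange factor gene, had 2 neighbouring pairs 3.51 and 3.82 kb into the gene. Of 25 chromatin regulators 4 held pairs (16%, 6.40 to 34.7), among them ARID1B, NSD1 and TET3. These genes are long, with a median of 115 kb, and all protein-coding genes of 100 to 300 kb gave 6.32%, near the lower limit of that interval. ARID1B, a subunit gene of the BAF remodelling complex, held the 2 pairs farthest from any gene end, 189 and 190 kb away. After these came FRYL at 98.9 kb, MBD5 at 93.7 kb and the noncoding gene LINC02770 at 91.1 kb.

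Of 26 DNA replication and mitosis genes 0 held a pair, which allows a share of up to 11.5% (3 counts of the total). Protein-coding genes of 10 to 30 kb, the class of the list's median length, gave 2.57%, below that limit. A called start was present in 25 of the 26, where the background was 43.0%. Glycolysis had 1 of 19 (ALDOA, 0.935% to 24.6%), with 2.57% in its class of 10 to 30 kb. Autophagy had 1 of 26 (ULK1, 0.682% to 18.9%), with 3.75% in its class of 30 to 100 kb. Both class shares lay within the intervals. No listed megakaryocyte, granulocyte and monocyte, lymphoid, hepatocyte, or muscle and stroma gene held a pair (0 of 14, 15, 17, 12 and 14, which allow up to 21.4%, 20%, 17.6%, 25% and 21.4% by the same limit; the plot of the lists draws Wilson intervals). The shares of the length classes of these lists, 0.988% to 2.57%, lay below those limits. GATA2, a progenitor factor, was the 1 host among 14 stem and progenitor genes and among 9 mast cell, basophil and eosinophil genes. Its pair lay at 128491273 and 128491437 of chromosome 3, within the gene and GATA2-AS1. GAD1, a neuronal enzyme gene and the 1 host among 14 neuron genes, held 2. For the stem, mast cell and neuron lists the shares of their length classes, 2.57% or 3.75%, lay within the Wilson intervals. The intervals of most lists are wide, the lists overlap, no test was run on them, and they were drawn up with earlier results of these data known.

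**Figure D5:**
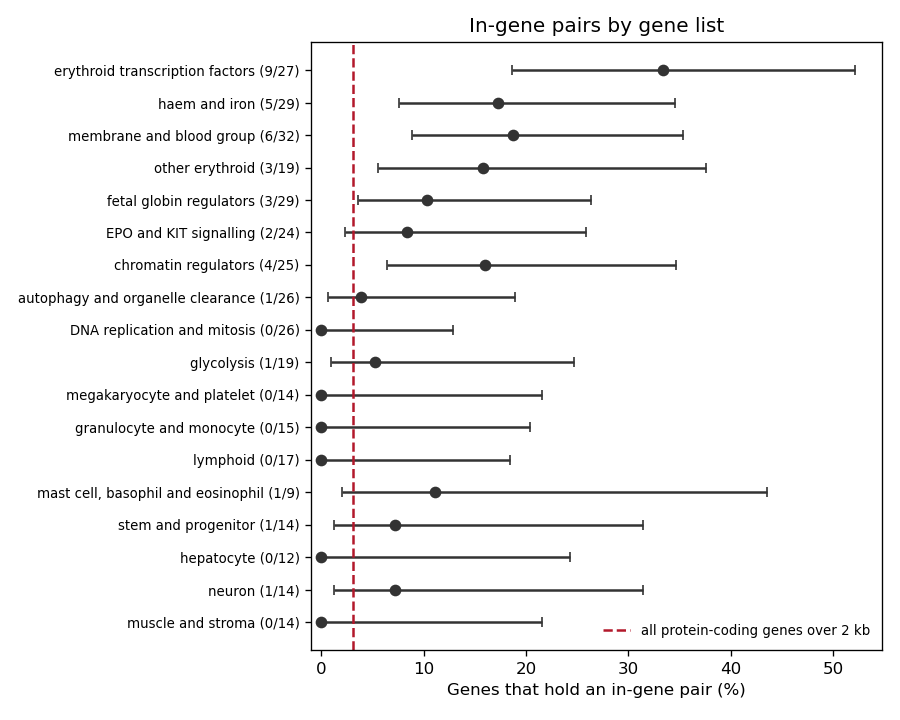
Share of listed protein-coding genes over 2 kb that hold an in-gene pair (%), with the number of hosts and of genes in parentheses and 95% Wilson intervals; the dashed line marks all protein-coding genes over 2 kb. Erythroid transcription factors stand at 33.3% and the line at 3.10%. The lists were drawn up with earlier results of these data known.

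Genes with most pairs held 3 each, in 12 genes, and the pairs were often neighbours. CDC14A, a phosphatase gene, had pairs at 100351323, 100351645 and 100352210 (reverse calls) of chromosome 1, the last with its forward call on an annotated start at 100352506. HDGF, a growth factor gene, had 3 within 2.51 kb, and SLC39A10, a zinc transporter gene, 3 within 1.48 kb. VPS26C, an endosomal sorting gene, had 3 within 0.623 kb, spaced 19, 40 and 93 bp. RHBDD1, a rhomboid protease gene, had 3 within 0.958 kb that all lay within 500 bp of 1 annotated start. MIR23AHG, the host gene of a microRNA cluster, and RNF220, a ubiquitin ligase gene, held 3 within 2.73 and 6.44 kb. SLC3A2, the heavy chain of an amino acid transporter, GSE1, RAI1, CACNA2D4 and VMP1 complete the 12. With pairs up to 10 kb apart joined, the 708 pairs formed 639 runs, of which 577 held 1 pair, 55 held 2 and 7 held 3. Calls on 1 strand lay at least 251 bp apart, and whether neighbouring pairs are separate start regions was not tested.

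The pairs lay a median of 5.13 kb from the nearest gene end (quartiles 1.94 and 13.6 kb). The nearest, in EIF2B5-DT, ESD and GALNT5, lay 1003, 1006 and 1006 bp away, and the nearest pairs inside genes that the limit left out lay 985, 981 and 974 bp away.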

How the data were processed

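PRO-cap calls of wild-type HUDEP-2 cells, labelled as 2 biological replicates, were used. Per the submitters' processing notes, BWA 0.7.16a, Picard, SAMtools 1.17, deepTools 3.5.4 and the build hg38 were used. The deposited lists are named for TSScall, for which the sources used here give no version, threshold or treatment of replicates. Other columns hold the deposited positions, 1 base per call and printed 1-based. Every deposited score equals 0, so no score was used.

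Gene ends came from a RefSeq table of GRCh38.p14 (58419 genes on these chromosomes; 679 entries on other scaffolds removed). Strand, internal starts and sequence came from RefSeq start windows (34961 windows, 27195 genes). No genome sequence was used, so that the planned sequence comparison with intergenic pairs was not run. Shares were compared with Fisher's exact test, two-sided, with Benjamini-Hochberg adjustment at 0.05 (Python 3.11.15, scipy 1.17.1, statsmodels 0.14.6). Pairing and classes were tested on simulated calls. Members, 18 gene lists (377 genes, all matched) and tests were chosen with earlier results of these data known, and the classes by annotated start and the window features were compared after the data were seen.

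Named genes were all hosts in the erythroid, fetal globin and signalling lists, up to 5 hosts of each other list, the 10 genes with most pairs (12 tied), the 5 largest runs, the 5 pairs farthest from gene ends and the 3 narrowest and widest pairs. Sequences were planned for erythroid transcription factor, haem and iron hosts; TMCC2, CCND3 and HEMGN were added later, and SLC11A2 had its call outside the window. Examples of hosts without a 5' call were chosen among named genes. Some hosts that this rule names are not reported here.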

Additional observations from a re-analysis of the deposited data

How the results depend on the processing

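No paired analysis was possible because the call lists name no replicate, so that leaving out a replicate could not be run either. Of 70 recomputed values, 56 stayed within their interval, within 1.5 times the count or on their side of the threshold, and none changed direction. Some of the 56 could not move. No in-gene pair had its calls in different sets of genes, and none shared its forward call. Asking for both calls in the same gene, or each nearest to the other, thus left the in-gene values unchanged. The main count was 708 in-gene pairs. The count allowance took in 523 at 2000 bp from gene ends, 1004 at 500 bp and 1053 with protein-coding ends only. With a pair distance of 150 bp there were 361 pairs, 310 protein-coding hosts, a median spacing of 101 bp and another call within 1 kb for 55.1%; with 500 bp the median spacing was 165 bp. Another call within 1 kb was found for 45.3% at 2000 bp from gene ends and 60.5% at 500 bp. Keeping clear of protein-coding ends only gave a protein-coding host for 78.6%. Host genes had a called start in 43.3% with a 200 bp and 55.1% with a 1000 bp window. An annotated start lay within 200 bp of 31.6% of pairs. For the called outer 5' end, the difference of -23.9 percentage points became -3.32 among hosts with an annotated start inside the gene, -10.0 in genes of 2 to 10 kb and -19.0 above 300 kb (exact tests, p = 0.601, 0.729 and 0.626), each added after seeing the data. It passed Fisher's exact test in the other 3 length classes (unadjusted p from 0.000226 to 0.0154). Other motif windows around pair centres were not run without a genome. Depth is unknown, so that a gene without a pair can hold one below the calling threshold.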

Other observations

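Chromosome 19 carried 70 in-gene pairs, or 2.20 per Mb of bases inside genes that meet the rule (exact Poisson interval 1.72 to 2.78). The next chromosomes were 22 with 1.14 per Mb (0.735 to 1.68) and 21 with 0.994 (0.589 to 1.57), and chromosome 3 had the lowest value, 0.255 (0.171 to 0.367). Across protein-coding genes, pairs per Mb fell from 2.93 at 2 to 10 kb to 0.0804 above 300 kb. Differences in gene length between chromosomes were not taken into account. The opposite arrangement, a forward call with a reverse call 1 to 300 bp above it, occurred 199 times under the same limits inside genes, against 708 divergent pairs.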
